A study of Mus musculus with 6 samples.

Results

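Reference genes of the kind used to normalise RT-PCR were followed across liver development. They were Ppia, Hprt, Tbp, Gusb, Rpl13a, Nono and Hsp90ab1, which are 7 of the 15 genes that this array measures with a RefSeq-named probe in 20 copies. The members were chosen by name, through 1 probe each, out of 60915 probes on the array, with earlier results of these data known. The samples were liver RNA of untreated male C57/BL6 mice, fetal at embryonic day 18 or adult at 2 months, with 3 arrays per stage. Each array carried 140 spots of these genes, and 4 to 10 of them per array were left out because the scanner software marked them as outliers. Neither the labels nor the design text say whether a fetal sample was 1 liver, a litter or a pool, so every p-value measures the spread between these samples.

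Reference genes are transcripts used as a yardstick for RNA input. They encode parts of basic cell machinery, and a stable level across the conditions compared is assumed rather than guaranteed. The panel covers transcription (Tbp, the TATA-binding protein of the general transcription machinery) and RNA binding in the nucleus (Nono, a paraspeckle protein). It covers translation (Rpl13a, of the large ribosomal subunit) and protein folding (Ppia, the peptidyl-prolyl isomerase cyclophilin A, and Hsp90ab1, the constitutive cytosolic HSP90 chaperone). It also covers purine salvage (Hprt, hypoxanthine phosphoribosyltransferase) and lysosomal sugar breakdown (Gusb, beta-glucuronidase). Before birth the liver is a site of blood cell formation beside its hepatocytes, and that role is lost as the organ matures.

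The upstream DNA of 3 genes is shown, so that a couple with a near-constant ratio and the gene with the smallest stage difference can be compared for promoter elements. RefSeq windows of 250 bases before the gene start, on build GRCm38.p6, were found for 6 of the 7 genes. The window of Nono did not match the start of that gene in the RefSeq gene list. Capitals mark matches, on either strand, to the TATA box (TATAAA), the CCAAT box or the GC box (GGGCGG). Printed are Hprt (chrX:52987828-52988077, plus strand) and Rpl13a (chr7:45128746-45128995, minus strand), whose ratio was among the steadiest, and Ppia (chr11:6415617-6415866, plus strand), whose stage difference was the smallest of the 7.
Hprt: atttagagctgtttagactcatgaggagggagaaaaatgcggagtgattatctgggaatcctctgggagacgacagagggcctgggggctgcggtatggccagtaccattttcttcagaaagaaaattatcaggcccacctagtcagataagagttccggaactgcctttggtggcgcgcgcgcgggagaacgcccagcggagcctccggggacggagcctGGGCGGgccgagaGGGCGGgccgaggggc
Rpl13a: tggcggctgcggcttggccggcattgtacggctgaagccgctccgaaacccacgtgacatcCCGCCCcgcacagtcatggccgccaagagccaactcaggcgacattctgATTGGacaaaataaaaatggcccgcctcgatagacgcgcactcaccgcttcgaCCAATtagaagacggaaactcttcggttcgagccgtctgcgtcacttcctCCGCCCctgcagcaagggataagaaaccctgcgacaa
Ppia: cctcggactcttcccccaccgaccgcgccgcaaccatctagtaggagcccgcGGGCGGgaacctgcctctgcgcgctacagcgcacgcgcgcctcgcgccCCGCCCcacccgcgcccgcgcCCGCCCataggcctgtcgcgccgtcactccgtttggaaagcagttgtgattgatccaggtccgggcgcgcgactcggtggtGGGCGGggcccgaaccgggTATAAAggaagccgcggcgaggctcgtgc
The Hprt window held 2 matches to the GC box GGGCGG and none to the other motifs, and its GC content was 59.6%. The Rpl13a window held 2 GC boxes and 2 CCAAT matches, at a GC content of 58.8%. The Ppia window was the richest of the 3 in GC, at 72.4%, with 4 GC boxes and 1 TATAAA. Over 32851 windows of the same length, 12.4% held TATAAA, 33.9% held CCAAT and 32.7% held GGGCGG. CpG dinucleotides numbered 17, 24 and 38 in the windows of Hprt, Rpl13a and Ppia, against a median of 6 over all windows. Of the windows not printed, that of Tbp held 1 GC box and 11 CpG, and that of Gusb held no match and 3 CpG. That of Nono, which does not match the gene start, held 2 CCAAT matches, no GC box and 13 CpG. The GC box was thus found in 4 of the 6 windows, with that of Nono counted. These matches describe letters and were not tested as sites.

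Levels are given as log2 of the processed signal minus the 75th percentile of signal on the same array, so a difference of 1 is 2-fold. A probe's brightness depends on its sequence, and the genes are therefore compared by their changes and never by their levels. All 20 spots of each member were well above background on all 6 arrays, and no spot was saturated. Differences are fetal minus adult, and values of a stage are listed in the order of arrays 1, 2 and 3. In a whole organ, fewer cells of a type and less RNA per cell cannot be told apart.

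None of the 7 genes passed the test between stages, which asked for at least a 2-fold change at a limma adjusted p under 0.05. Over all 32336 tested probes 26.0% passed it. Hprt and Rpl13a lay higher on every fetal array than on any adult array, and Hsp90ab1 lay lower on every fetal array. These are 3 of 7 genes without overlap, where 47.6% of all probes had none, 20.6% on the higher side and 27.0% on the lower. At an unadjusted limma p under 0.05 stood 1 gene, Hsp90ab1, against 40.5% of all probes. The difference was under 0.5 in size for 5 of the 7 genes and for 37.1% of all probes. The median size was 0.38 for the 7 genes and 0.73 for all tested probes. A tested probe needed a signal well above background on only 3 arrays, whereas the members had it on every array. The members and all probes thus differ in detection, and these shares were not taken for probes detected on every array. The part of detection in these contrasts, and in the later ones with all probes or all pairs, was not tested.

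**Figure D1:**
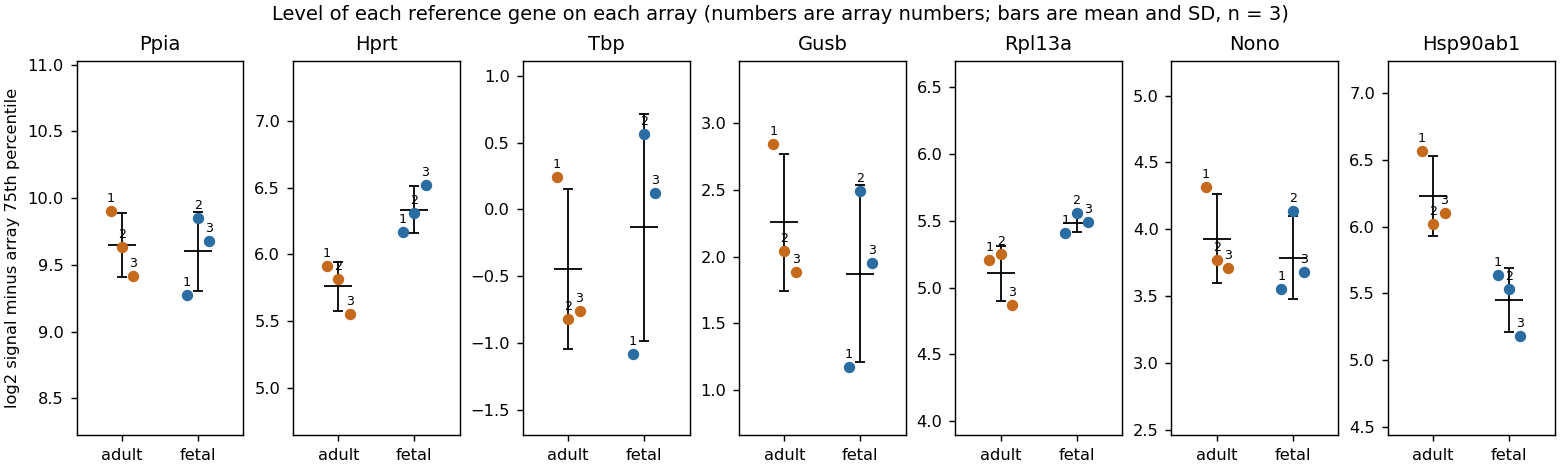
Level of each gene on each array (log2 signal minus the array's 75th percentile, 1 panel per gene, all panels with the same span), orange for adult and blue for fetal liver, with array numbers beside the points and bars for mean and SD (n = 3). Hprt and Rpl13a lie higher and Hsp90ab1 lower on all fetal arrays, while the points of Tbp and Gusb spread widely within each stage.

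Hsp90ab1 showed the largest stage difference of the 7. Its levels were 6.57, 6.02 and 6.10 in adult liver and 5.64, 5.53 and 5.18 in fetal liver. The lowest adult array thus stayed above the highest fetal array. The mean was 6.23 ± 0.30 in adult and 5.45 ± 0.24 in fetal liver (SD, n = 3 each), and limma gave a difference of -0.78 (SE 0.28, 95% interval -1.44 to -0.12, adjusted p = 0.081), or 1.71-fold. The interval left out 0, but the adjusted p missed the threshold, and 52.1% of all probes differed by less. With quantile normalization in place of the percentile the difference was -0.59.

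Hprt was the member that stood highest in fetal relative to adult liver. The adult arrays gave 5.91, 5.81 and 5.56, and the fetal arrays gave 6.17, 6.31 and 6.52. All fetal values lay above all adult values, with spreads of about the same size in both stages (SD 0.18 each, n = 3). The limma difference was 0.57 (SE 0.25, interval -0.01 to 1.16, adjusted p = 0.130), a 1.49-fold change whose interval just reached 0.

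Rpl13a, the ribosomal member, differed in the direction of Hprt and by less. It read 5.20, 5.25 and 4.87 in adult liver, and 5.41, 5.56 and 5.49 in fetal liver. The fetal arrays lay close together (SD 0.072) and the adult arrays were pulled apart by adult array 3 (SD 0.21). The difference was 0.38 by limma (SE 0.24, interval -0.19 to 0.95, adjusted p = 0.282), or 1.30-fold. It was 0.26 without adult array 3, the value in which it was smallest over the settings tried.

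Ppia and Nono differed least between stages. The levels of Ppia were 9.90, 9.63 and 9.42 in adult liver and 9.27, 9.85 and 9.68 in fetal liver, which overlapped almost fully. Its limma difference was -0.05 (SE 0.28, interval -0.71 to 0.61, adjusted p = 0.912). This interval still allowed a fetal level from 0.61 to 1.53 times the adult one, so 3 arrays per stage could not show that Ppia was constant. Nono stood at 4.31, 3.77 and 3.71 in adult and at 3.55, 4.14 and 3.68 in fetal liver, with a limma difference of -0.14 (SE 0.30, interval -0.85 to 0.57, adjusted p = 0.757). The sign of both was unsettled: without adult array 1 the differences were 0.08 for Ppia and 0.05 for Nono, and that of Ppia was 0.11 without fetal array 1 and 0.18 with quantile normalization.

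Tbp and Gusb were the genes that differed most among arrays of a stage. The Tbp probe was dim, with processed signals of 137, 39.7 and 46.9 in adult and of 35.1, 227 and 91.6 in fetal liver, and its raw signal was 2.48 to 10 times the local background. Its levels were 0.24, -0.82 and -0.76 in adult and -1.08, 0.56 and 0.12 in fetal liver. The fetal arrays alone spanned 1.64, and the limma difference of 0.31 had an interval from -0.91 to 1.54 (adjusted p = 0.685). Without fetal array 2 the Tbp difference was -0.03. Gusb read 2.84, 2.04 and 1.89 in adult and 1.17, 2.49 and 1.95 in fetal liver, with a limma difference of -0.39 (interval -1.42 to 0.65, adjusted p = 0.547). Adult array 1 and fetal array 2 were the highest of their stage for both genes, and fetal array 1 was the lowest fetal array for both.

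That pattern across arrays ran through most of the panel. Adult array 1 was the highest adult array for 6 of the 7 genes and fetal array 2 the highest fetal array for 5, with both true of 4 genes, against 25.4% of all probes. Fetal array 1 was the lowest fetal array for 6 of the 7. The share over all probes was taken for the joint count alone. The mean level of the 7 genes was 4.997, 4.53 and 4.40 in adult and 4.31, 4.92 and 4.66 in fetal liver. The 75th percentile of signal, which had already been subtracted, was also highest on these arrays, at 115.7 on adult array 1 and 153.8 on fetal array 2, and between 70.3 and 84.2 on the other 4. Fetal array 2 also had the most probes well above background, 36944, and adult array 2 the fewest, 27427. The log2 signal of the Gapdh control probe at the 5′ end minus that at the 3′ end, a sign of RNA or cRNA length, was likewise highest there, at -2.41 on adult array 1 (-3.39 and -2.72 on adult arrays 2 and 3) and -2.37 on fetal array 2 (-2.95 and -2.93 on fetal arrays 1 and 3). For Pgk1 it was -7.62, -8.36 and -8.23 in adult and -7.80, -6.97 and -6.97 in fetal liver, lowest on fetal array 1 of that stage. The part of array brightness and of these signs in the members' spread was not tested.

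Replicate spots placed the error between spots far below the spread between arrays. The SD over the spots of a gene on an array, averaged over the 6 arrays, ran from 0.021 for Ppia to 0.030 for Gusb, and was 0.104 for the dim Tbp. When the stage difference was taken from each spot position alone, Hsp90ab1 ranged from -0.82 to -0.74 over 16 positions and Hprt from 0.55 to 0.60 over 14. Every usable position of these genes therefore gave the direction of the mean. Tbp ranged from 0.16 to 0.45 over 18 positions, and Ppia from -0.06 to -0.01 over 16. Spots are technical copies of 1 sample and add nothing to n.

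By a scan identifier shared between files, the arrays fell into 2 groups, here taken to be slides, that each held both stages. Slide 1 carried adult arrays 1 and 2 and fetal arrays 2 and 3, and slide 2 carried adult array 3 and fetal array 1. The differences on slide 1 and slide 2 were 0.56 and 0.61 for Hprt and 0.30 and 0.54 for Rpl13a. Those of Hsp90ab1 were -0.94 and -0.46. The 3 genes without overlap kept their direction on each slide, which the lack of overlap fixes in advance. Nono, at -0.13 and -0.16, and Gusb, at -0.22 and -0.71, also kept theirs, though their stages overlapped. Ppia gave -0.00 and -0.15, and Tbp turned from 0.63 to -0.32. Slide 2 holds 1 array of each stage and has no error of its own.

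Fetal array 1 was unlike its replicates, with correlations across probes of 0.893 and 0.915 with fetal arrays 2 and 3, which correlated at 0.983 with each other. Without it the differences of the 3 separated genes were of similar size, at 0.66 for Hprt, 0.42 for Rpl13a and -0.87 for Hsp90ab1. The widely spread genes moved further, Tbp to 0.79 and Gusb to -0.04. None of the 7 genes was called without that array, since each difference stayed under 2-fold.

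**Figure D2:**
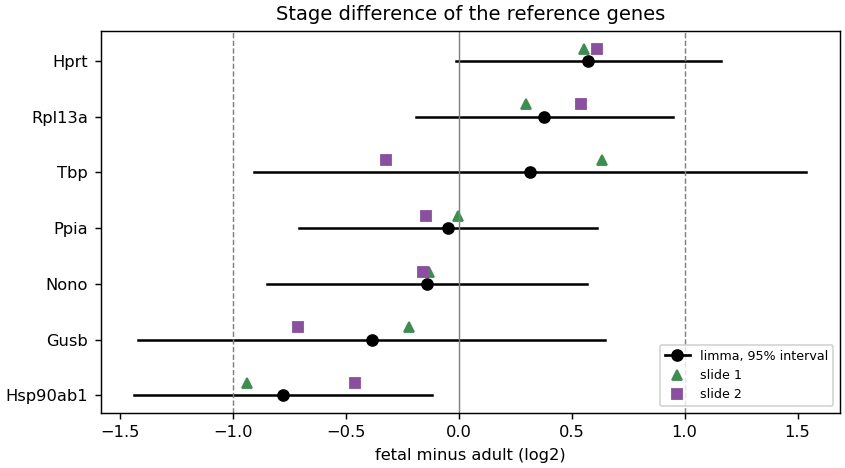
Fetal minus adult difference of each gene on the log2 scale, with black points for limma on all 6 arrays and bars for the 95% interval, green triangles for slide 1 and purple squares for slide 2; dashed lines mark a 2-fold change. The interval of Hsp90ab1 alone leaves out 0, and Tbp is the gene whose slides lie on opposite sides of 0, at 0.63 and -0.32.

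Ranked by steadiness within a stage, the order was Rpl13a, Hprt, Hsp90ab1 and Ppia together, Nono, Gusb and Tbp. The pooled SD within stages was 0.155 for Rpl13a, 0.181 for Hprt, 0.270 for both Hsp90ab1 and Ppia, 0.320 for Nono, 0.593 for Gusb and 0.735 for Tbp. The median of all probes was 0.453, which Gusb and Tbp exceeded. Ranked by the size of the difference between stages, the order was Ppia, Nono, Tbp, Rpl13a, Gusb, Hprt and Hsp90ab1. The 3 genes without overlap were among the steadiest within a stage, but a small within-stage SD itself favours separation. The stage difference of Hprt was 3.17 times its within-stage SD, that of Hsp90ab1 2.88 times and that of Rpl13a 2.45 times. For Ppia, Tbp, Nono and Gusb the ratio was from 0.18 to 0.65. In size alone, the difference of Rpl13a (0.38) was close to that of Gusb (-0.39). These ranks are descriptions of 6 arrays.

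Ratios between members on the same array do not depend on how arrays are scaled. Each gene was set against the mean of the other 6, and the change of that ratio between stages was tested with an exact two-sided permutation test, which for 3 arrays against 3 cannot give a p below 0.10. Hprt differed by 0.68 without overlap of the stages and Hsp90ab1 by -0.89 without overlap, each with an exact permutation p of 0.10. Rpl13a gave 0.46 and Nono -0.15 (exact permutation p = 0.2 each), both with overlap. Gusb gave -0.43 (exact permutation p = 0.3), Tbp 0.38 (exact permutation p = 0.5) and Ppia -0.04 (exact permutation p = 0.6). The genes at the ends were Hprt and Hsp90ab1, as on the percentile scale. The arithmetic of this ratio keeps the order of the 7 stage differences, so that match was fixed in advance. Stages were separated for 2 of the 7 genes here, where 42.2% of all probes were separated when set against the mean of the 7. The number was 4 genes without adult array 2, without fetal array 1 or without fetal array 2. Fewer arrays separate more easily, and the share over all probes was not taken for these removals.

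The 21 pairs of genes covered a wide range of constancy. The log2 ratio did not overlap between stages in 10 of the 21 pairs. Over all 520015125 pairs of tested probes 50.9% did not overlap, so the panel's share was close to that of all pairs. None of the 21 could pass the exact permutation test, whose smallest p of 0.10 became 0.21 after Benjamini-Hochberg adjustment over the pairs. The direction of the change was the same on both slides in 16 of the 21. For the 10 pairs without overlap this was fixed in advance. Among the pairs with overlap it turned for Tbp with Ppia, Nono, Hprt and Rpl13a, and for Gusb with Hsp90ab1. The share over all pairs was not taken.

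Ppia over Nono was the most constant ratio over the 6 arrays as the signals were processed here. Its log2 values were 5.59, 5.86 and 5.71 in adult and 5.72, 5.72 and 5.997 in fetal liver. The SD over the 6 arrays was 0.142, which 0.130% of all pairs of probes fell below, and the stages overlapped with a difference of 0.09. Hprt over Rpl13a came next, at 0.71, 0.57 and 0.68 in adult and 0.76, 0.76 and 1.03 in fetal liver. Its SD was 0.155, with 0.186% of all pairs below it. The stages did not overlap even here, by a difference of 0.20 in the direction of Hprt. Both pairs were picked as the steadiest of the 21, so their shares are not those of pairs named beforehand. Which pair had the smallest SD depended on the arrays and the processing. It was Hprt with Rpl13a after quantile normalization, without adult array 2 and without fetal array 3, Gusb with Nono on slide 1 alone and without fetal array 1, and Ppia with Tbp after normexp.

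Hsp90ab1 took part in the 3 pairs that differed at least 2-fold between stages. The ratio of Hprt to Hsp90ab1 was -0.66, -0.20 and -0.54 in adult and 0.53, 0.78 and 1.34 in fetal liver, a difference of 1.35 or 2.55-fold with every fetal array above every adult array. Rpl13a over Hsp90ab1 differed by 1.15, or 2.23-fold, also without overlap. Tbp over Hsp90ab1 differed by 1.09 with overlap, and its SD of 0.884 was the largest of the 21. Even that SD lay below the median of 1.069 for all pairs of probes, which include probes not detected on every array. The differences on slide 1 and on slide 2 were 1.49 and 1.07 with Hprt, 1.23 and 0.999 with Rpl13a, and 1.57 and 0.14 with Tbp. The difference with Tbp was 1.66 without fetal array 1, 0.78 without fetal array 2 and 0.83 without fetal array 3. A small mean difference did not make a constant ratio: Tbp over Rpl13a differed by -0.06 between stages with an SD of 0.607.

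**Figure D3:**
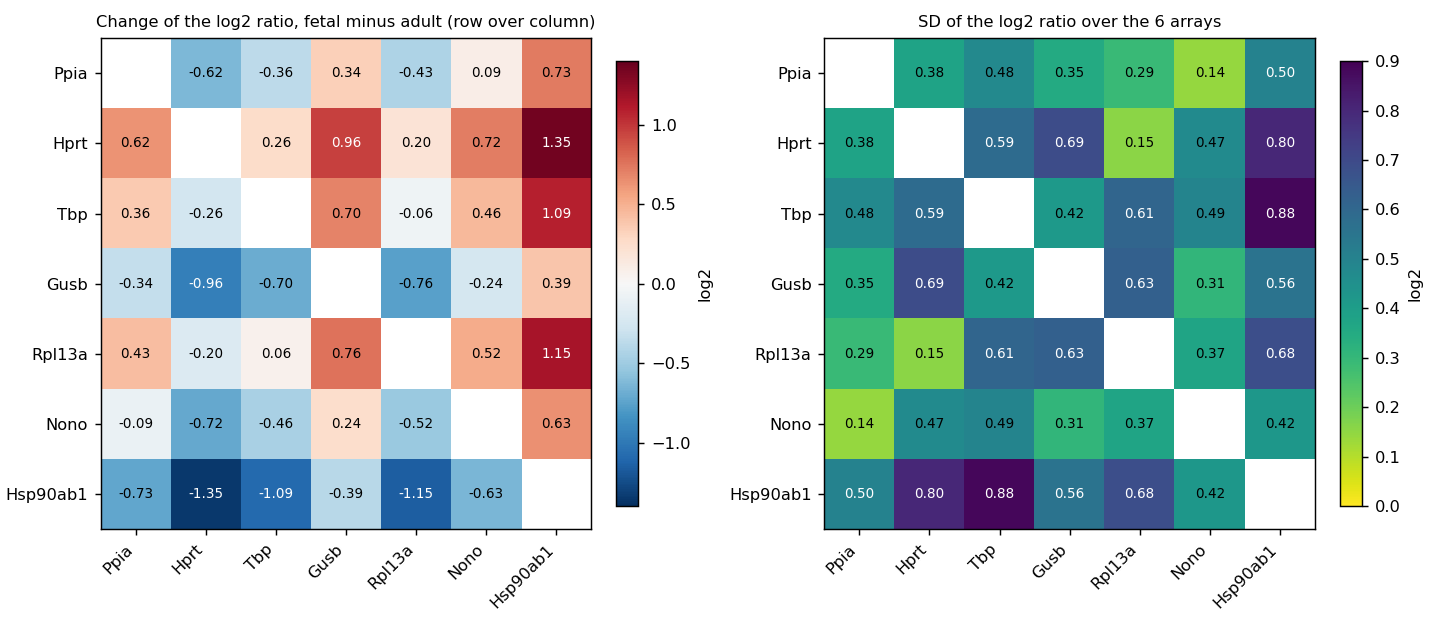
The left panel gives the change of each log2 ratio, row gene over column gene, fetal minus adult (red higher, blue lower), and the right panel the SD of that ratio over the 6 arrays (yellow small, purple large). The row of Hprt is red and that of Hsp90ab1 blue throughout, and the smallest SDs, 0.14 and 0.15, belong to Ppia with Nono and Hprt with Rpl13a.

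The geNorm measure M sums this up as the mean SD of a gene's log2 ratios to the other 6 genes, so that a low M marks a gene that moves with the panel. Over all 6 arrays M was 0.357 for Ppia, 0.368 for Nono, 0.456 for Rpl13a, 0.491 for Gusb, 0.513 for Hprt, 0.578 for Tbp and 0.642 for Hsp90ab1. Within adult liver the order differed, with Nono at 0.199, Ppia at 0.208 and Hsp90ab1 at 0.223, and Tbp last at 0.362. Within fetal liver Ppia was at 0.334 and Nono at 0.355, with Hsp90ab1 at 0.546 and Tbp last at 0.651. Hsp90ab1 was thus among the lowest 3 in adult liver and last when the stages were joined. Ppia and Nono held the lowest M values in each stage and over both.

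Removing the gene of highest M step by step left Ppia with Nono over the 6 arrays, after Hsp90ab1, Tbp, Gusb, Hprt and Rpl13a had gone in that order. Adult arrays alone left Nono with Hsp90ab1, whose ratio had an SD of 0.079 there. Fetal arrays alone left Hprt with Rpl13a, at 0.159. The last couple therefore depended on the stages used. With fetal array 1 left out, Ppia (0.330) and Nono (0.343) again had the lowest M and Hsp90ab1 (0.679) the highest. Without fetal array 3 Tbp (0.572) passed Hsp90ab1 (0.565), and on slide 2 alone the highest M was that of Hprt (0.582).

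**Figure D4:**
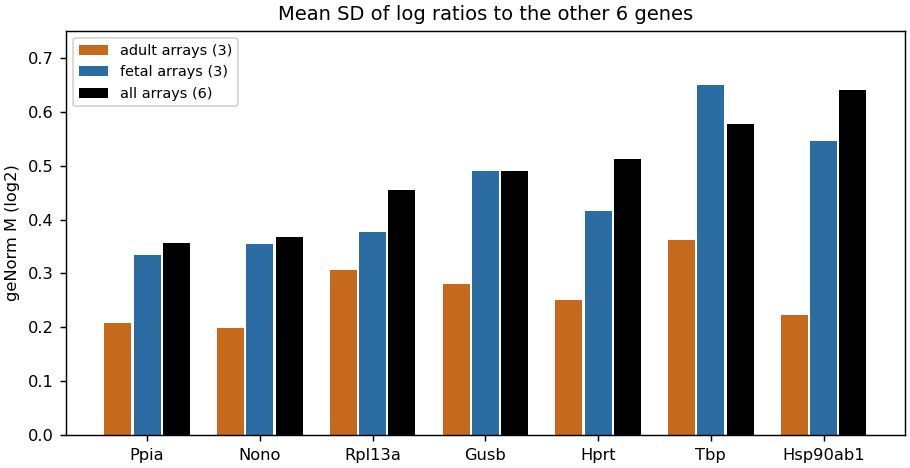
The geNorm M of each gene (log2, mean SD of its log ratios to the other 6 genes) from the 3 adult arrays (orange), the 3 fetal arrays (blue) and all 6 arrays (black), ordered by M over all arrays. Ppia and Nono have the lowest black bars, at 0.357 and 0.368, and Hsp90ab1 goes from 0.223 in adult liver to 0.642 over both stages.

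The other 8 genes with RefSeq probes were Actb, Gapdh, B2m, Tfrc, Tuba1b, G6pd2, Gk and Ldhal6b, several of them also used as references. Of these 8, 2 were called higher in fetal liver and 1 lower, and 5 were not called by limma. Members and others were split with earlier results of these data known, so their counts are not independent of that choice. For likeness, each member was set against the other 14 genes by the SD of the log2 ratio over 6 arrays. Ppia was most like Nono (0.142) and then Gapdh (0.169), a glycolytic enzyme, and Nono was most like Ppia and then Gk (0.290), glycerol kinase. Hprt and Rpl13a were most like each other (0.155), with Ppia next for both (0.378 and 0.292). Tbp was most like Actb (0.314), a cytoskeletal actin, and then Gusb (0.418). Gusb was most like Nono (0.309) and Ppia (0.350), and Hsp90ab1 most like Gk (0.329) and Nono (0.423). The nearest gene of Tbp and of Hsp90ab1 thus lay outside the panel, at more than the distance between Ppia and Nono.

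Of the cell type markers listed for liver, Tfrc of the erythroid list and B2m were the ones with a named probe, and the label of the tissue was not checked against hepatocyte genes. Tfrc, the transferrin receptor, rose by 3.62 in fetal liver (limma adjusted p = 1.8e-04) and B2m, the invariant subunit of MHC class I molecules, differed by -2.75 (limma adjusted p = 7.8e-04). The part of cell composition in the differences of Hprt, Rpl13a and Hsp90ab1 was not tested.

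Each gene was then used as the only yardstick, as in an RT-PCR study, by setting its level to the same value on every array and repeating limma over all tested probes. This adds to every probe the member's own stage difference with its sign turned, and takes the member's deviations between arrays off every probe. With Hprt as reference 35.6% of probes were called, 11517 in all, of which 18.6% were higher in fetal liver. With Hsp90ab1 30.7% were called, 9943 probes, and 79.8% of these were higher. The 2 genes thus turned the balance of the array in opposite directions. Rpl13a called 30.3%, 9798 probes, with 25.3% of them higher, on the side of Hprt.

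The other references gave a middle ground or few calls. Ppia called 24.0% of probes, with 41.3% of the calls higher, and Nono called 21.6%, with 47.4% higher. The mean of the 7 genes called 23.0%, with 39.9% higher, and the mean of Ppia and Nono called 23.1%, with 44.1% higher. Gusb and Tbp, the genes that varied most within a stage, called fewest as scaled here: 14.1% for Gusb, with 54.5% higher, and 12.8% for Tbp, with 26.3% higher. After normexp Gusb called 1472 probes but Tbp 3855, more than the 3157 with Ppia and the 2597 with Nono. Normexp adds an offset of 50, and the processed signals of Tbp were only 35.1 to 227. The part of that offset in the Tbp count was not tested. The median difference of all probes ran from -0.64 with Hprt to 0.71 with Hsp90ab1, and was -0.01 with Ppia and 0.08 with Nono.

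**Figure D5:**
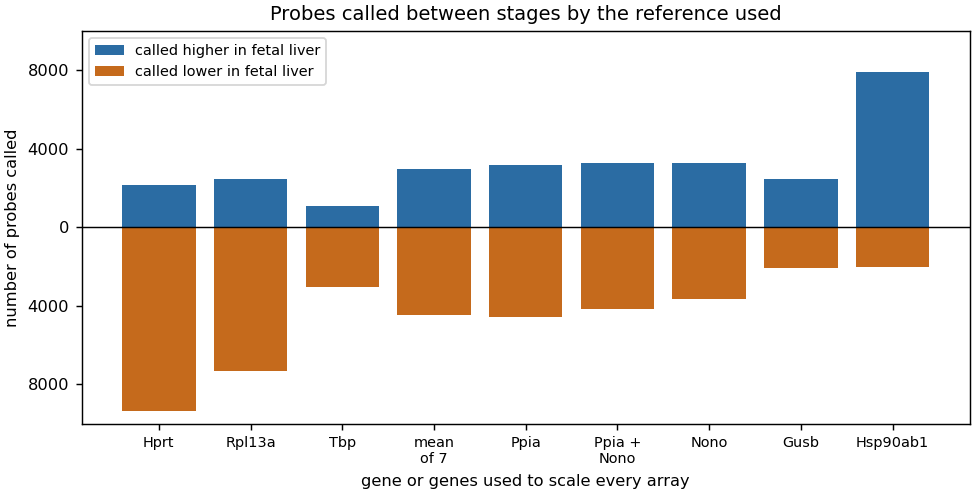
Number of probes called between stages by limma when every array was scaled to the gene or genes named below the bar, higher in fetal liver above the axis (blue) and lower below it (orange). With Hprt 9377 of 11517 calls lie below the axis and with Hsp90ab1 7930 of 9943 lie above it.

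Counts from a single reference also rested on single arrays. The 4135 calls with Tbp became 1497, 1523 and 1634 without adult array 2, adult array 3 and fetal array 3, and 7813 without fetal array 1. Leaving out these same adult arrays and fetal array 3 gave 1981, 2161 and 2107 calls with Gusb (4561 in all), 4566, 4739 and 5004 with Ppia (7752), and 3850, 4112 and 4483 with Nono (6976). It gave 4134, 4325 and 4645 with the mean of the 7 (7453), and 4168, 4453 and 4777 with the mean of Ppia and Nono (7473). Without adult array 3 there were 7499 calls with Hprt, 6331 with Rpl13a and 6576 with Hsp90ab1, and for Hsp90ab1 there were 6062 without adult array 1 and 6472 without fetal array 3. Every other removal moved a count by less than 1.5 times. Hsp90ab1 had the highest share of calls on the fetal side in all 6 removals, among the 7 single references.

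The size of the shift can be read on genes outside the panel. The fetal minus adult difference of Tfrc ran from 3.05 with Hprt as reference to 4.40 with Hsp90ab1, and that of B2m from -3.32 to -1.97. Both were called by limma with each of the 7 references. Tuba1b, an alpha-tubulin, ran from 2.22 to 3.57 and lost its call with Tbp. Ldhal6b was called with Hprt alone and G6pd2 with Hsp90ab1 alone among the 7. Actb lay at -0.27 with Hprt and 1.08 with Hsp90ab1, and Gapdh at -0.67 and 0.68, and neither was called. Each of these ranges follows from the stage differences of Hprt and Hsp90ab1 and says nothing further about the gene.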

How the data were processed

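Per the labels' protocols, liver RNA freed of ribosomal RNA was amplified by random priming into Cy3-labelled cRNA for a 1-colour Agilent lncRNA array. The deposited scanner files hold linear intensity per spot (Agilent Feature Extraction 11.0.1.1, per the submitters' processing notes). The processed signal is background-subtracted and unscaled between arrays, per the file headers, and the flags are 0 or 1 per spot in the other columns deposited by the authors. The authors' table of processed values has no member probe and was not used.

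Here log2 processed signals were reduced by each array's 75th percentile and averaged over spots without outlier flags. Control spots were left out. Probes that 3 or more of the 6 arrays detected well above background, 32336 in all, were fitted with limma 3.58.1 in R 4.3.3 (two-sided, Benjamini-Hochberg over all tested probes), after the step was tested on simulated data. Slides were inferred from a scan identifier that files share in their headers. Pair ratios, exact permutation tests, geNorm M, scaling to single members and the alternatives given at the end followed. Normexp (offset 50) used median foreground signals, since no mean signal column was at hand. All 7 members and, for each, the 2 most similar of the other 14 RefSeq-named genes were named. Members and lists were chosen with earlier results of these data known. The number of arrays limits the precision.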

Additional observations from a re-analysis of the deposited data

How the results depend on the processing

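None of the 7 genes was called in any of the 18 alternatives with a test. A call needs 2-fold, and the largest difference was -0.95, for Hsp90ab1 with array weights. The fold threshold alone therefore kept every member from a call, whatever its adjusted p. The share of all probes called was not taken in these settings. Hprt, Rpl13a, Gusb and Hsp90ab1 kept their direction in all 19 alternatives. For all of these but Gusb, the lack of overlap fixes this where arrays are left out or a slide is taken alone. The difference of Ppia was 0.18 with quantile normalization, 0.022 with normexp and 0.067 with array weights, and from -0.18 to 0.11 with an array left out. That of Tbp was -0.32 on slide 2 alone and from -0.033 to 0.79 with an array left out, and that of Nono from -0.32 to 0.049. With array weights the limma adjusted p was 0.0025 for Hprt (0.77), 0.0016 for Hsp90ab1 (-0.95) and 0.023 for Tbp (0.75), each under 2-fold. Over all alternatives the limma adjusted p ran from 0.0025 to 0.334 for Hprt, from 0.0016 to 0.230 for Hsp90ab1 and from 0.023 to 0.970 for Tbp. Genes without overlap of the stages numbered 2 to 4 over the alternatives, for which the share over all probes was not taken. The cause was not tested.

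Genes whose ratio to the mean of the other members separated the stages numbered 4 with quantile normalization and on slide 1 alone, and 2 to 4 with an array left out. Stages separate more easily with fewer arrays, and the share over all probes was not taken in these settings. The fewest probes called with a single reference were 1472 with normexp and 7115 with the slide as a block, and 1497 to 5534 with an array left out. The most were 7499 to 13476 with an array left out. With the replicate block these counts were 1272 and 7305. Normexp and the replicate block gave 3157 and 3539 calls with Ppia (7752 as reported), 2597 and 3614 with Nono (6976), 3521 and 3212 with the mean of the 7 (7453) and 2837 and 3450 with that of Ppia and Nono (7473). They gave 6287 and 5536 with Rpl13a (9798) and 1472 and 1293 with Gusb (4561). The replicate block gave 6447 with Hprt (11517), and the slide as a block gave 7806 with Gusb and 7115 with Tbp (4135). Replicate numbers do not pair these samples: deviations from the stage means of arrays with the same number correlated at -0.53, -0.35 and -0.31 across probes. The replicate block left the members' differences as they were, under 2-fold, so it could not change a call of a member. Ppia and Nono had the lowest M in 11 of the 12 alternatives run for M, and with normexp they were Ppia and Tbp. The normexp offset lies within the range of the Tbp signals, and its part in that M was not tested. With 3 arrays per stage and a probe at 2.48 to 10 times background, the Tbp values are the least precise of the 7.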
